A study of Rattus norvegicus with 30 samples.

Results

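The major histocompatibility complex (MHC) interval of rat chromosome 20 was examined in hippocampal RNA-seq libraries of 30 male Sprague-Dawley rats, 1 library per rat. Its members were chosen by position and by a minimum level: rows of the deposited count tables on chromosome 20 whose first base lies between 1500000 and 5500000, with 10 or more counts in at least 5 libraries. Of the 302 rows in this interval, 146 met the count rule and are called members here, out of 32552 rows in the tables and 15897 rows that met the same count rule anywhere. Among the 156 other rows of the interval, 39 had 0 counts in every library.

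The 5 groups differed in drug and in foot-shock. CT rats (n = 7) took saline and were not shocked. SR rats (shock-resistant, n = 7) and SS rats (shock-sensitive, n = 6) self-administered methamphetamine (METH) for 21 days and then for 8 days with part of the lever presses punished by foot-shock. They were told apart afterwards, by whether they went on pressing, so that SR and SS are groups made by the rats' own behavior and not by assignment. YSR and YSS rats (n = 5 each) took saline and were shocked whenever the SR or SS rat to which each was yoked was shocked. No allele or transgene is given for any group, and Sprague-Dawley is an outbred stock, in which animals differ from each other genetically. The genotypes of the rats were not analysed here. The tissue is the whole hippocampus per the study's methods and the deposited treatment protocol, whereas the tissue field of the deposited records reads dorsal striatum. The code XII or XIII in each rat's name is taken as its cohort, though neither the labels nor the study's text says what it stands for. XII supplied 1 CT, 4 SR, 2 SS, 3 YSR and 1 YSS rats.

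The MHC holds the genes of class I and class II molecules, which present peptides to T cells, together with genes for antigen processing, complement components and cytokines, and many genes with no role in immunity. Class I and class II genes are among the most variable between individuals, in sequence and, in rats, in the number of gene copies. In brain, class I transcripts are found in neurons and glia, and class II transcripts mainly in microglia and other myeloid cells. The tables identify rows by Ensembl identifier alone. The gene table at hand (RefSeq) lists 67 genes with an RT1 symbol, the name of the rat MHC, and all 67 lie on chromosome 20, but it holds 0 Ensembl identifiers. The interval's name therefore rests on position only, no member could be given a gene name or a known function, and the markers of hippocampus, striatum or other cell types could not be looked up. Positions are those of the deposited tables, whose genome build is not given in the sources used here.

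Libraries held between 14584340 and 19997820 counts on genes, so that 3 counts, taken here as the limit of detection, corresponded to between 0.15 and 0.206 CPM, the usual unit of counts scaled by library size. This limit covers counting error only. The interval took a like share of each group's counts. Its rows summed to 7355 ± 97.3 CPM of the total in CT rats (SD, n = 7), 7441 ± 242 in SR rats (n = 7), 7344 ± 219 in SS rats (n = 6), 7318 ± 99.8 in YSR rats (n = 5) and 7397 ± 134 in YSS rats (n = 5). The difference between the highest and the lowest of these means was smaller than the SDs of SR, SS and YSS rats. It was larger than those of CT and YSR rats. In bulk tissue, fewer cells of a type and less RNA per cell cannot be told apart.

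Members were spread unevenly along the interval. Between 1.5 and 2 Mb only 4 of 36 rows were members, and 29 of the 36 had a single exon. Between 3 and 3.5 Mb there were 30 members among 41 rows, and between 5 and 5.5 Mb 29 among 59. A single exon was annotated for 13 of the 146 members and for 70 of the 156 other rows. Exon bases shared with another row were found for 51 members, for which reads of more than 1 gene cannot be told apart.

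Levels among the members covered more than 3 orders of magnitude. After TMM normalization the 145 members kept by edgeR's filter had mean levels from 0.318 to 1362 CPM with a median of 9.19 CPM, against a median of 20.2 CPM over all 15797 genes tested. The remaining member, ENSRNOG00000058490, had at most 14 counts in any rat. The 5 members with the highest CPM together held 42.7% of the members' summed level. Per kilobase of exon, the most abundant was ENSRNOG00000061216 (3422461 to 3426371, 234 ± 11.6 CPM per kb, SD, n = 30), followed by ENSRNOG00000000774 (1955359 to 1984863, 202 ± 8.45), ENSRNOG00000000840 (4821285 to 4823494, 170 ± 7.66), ENSRNOG00000000433 (4392626 to 4396250, 130 ± 14.1) and ENSRNOG00000000852 (5139882 to 5155293, 80.9 ± 3.79). Neighbours in this order differed by more than the SD of either. Over the 30 rats ENSRNOG00000000774 lay between 1255 and 1487 CPM, while ENSRNOG00000000433, which had the largest SD of the 5 relative to its mean, ran from 218 to 348 CPM.

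As a whole, the members varied more between rats than all genes tested. The SD of log2 CPM over the 30 rats had a median of 0.25 for the members and 0.15 for all genes tested, while the median mean count was 161 and 355. An SD of at least 0.5 was seen in 36 of 145 members (24.8%) and in 8.37% of all genes. Since low counts raise this SD, the share was taken again among genes with a mean of at least 20 counts, where it was 23 of 127 members (18.1%) against 2.91% of all genes.

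Some members fell into separate levels in different rats. A member was called split where its sorted log2 CPM values held a gap of at least 1 unit with at least 3 rats on each side. By this rule 5 of 145 members were split (3.45%), against 50 of the 15797 genes tested (0.317%). On the rest of chromosome 20, none of 319 genes was split. Of the split members, 4 lie between 3126829 and 3150852 and the fifth at 3791407.

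The widest gap, 3.81 log2 units, belonged to ENSRNOG00000060523 (3134704 to 3135301, minus strand, 598 bases in 1 exon). Its counts were 0 to 3 in 22 rats, 71 to 135 in 7 rats and 221 in the rat SS XII-L03. In CPM, the SR rats ranged from 0 to 4.97 with a median of 0.0579, and only SR XII-L07 had more than 3 counts. SS rats ranged from 0 to 12.6 with a median of 2.78, and SS XIII-R03, SS XII-L03 and SS XII-R03 were the high ones. The YSR rat XII-R10 stood at 5.38 and the other YSR rats at or under 0.16. The YSS rats XIII-L02, XIII-L04 and XIII-L06 stood at 5.22, 4.04 and 5.98, and the other two at or under 0.114. No CT rat exceeded 2 counts. The high level was thus seen in 8 rats, 4 of cohort XII and 4 of cohort XIII, and in each group but CT. Cohort XII was the smaller cohort, and CT held 6 rats of XIII and 1 of XII. With the group as a term beside the cohort, the log2 fold change of XIII vs. XII was -2.21 ± 0.99 (SE, edgeR-adjusted p = 0.254).

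Both neighbours followed it rat for rat. ENSRNOG00000062036 (3126829 to 3127609) and ENSRNOG00000026051 (3135791 to 3140610) were split 22 to 8, with gaps of 2.20 and 2.41 log2 units, and the 8 rats above the gap were the same in all 3 members. ENSRNOG00000026051 held 80 to 191 counts in those 8 rats and 2 to 14 in the other 22. A row nearby that did not meet the count rule, ENSRNOG00000030666 (3115840 to 3123100), had 3 to 10 counts in the same 8 rats and at most 1 elsewhere.

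**Figure D1:**
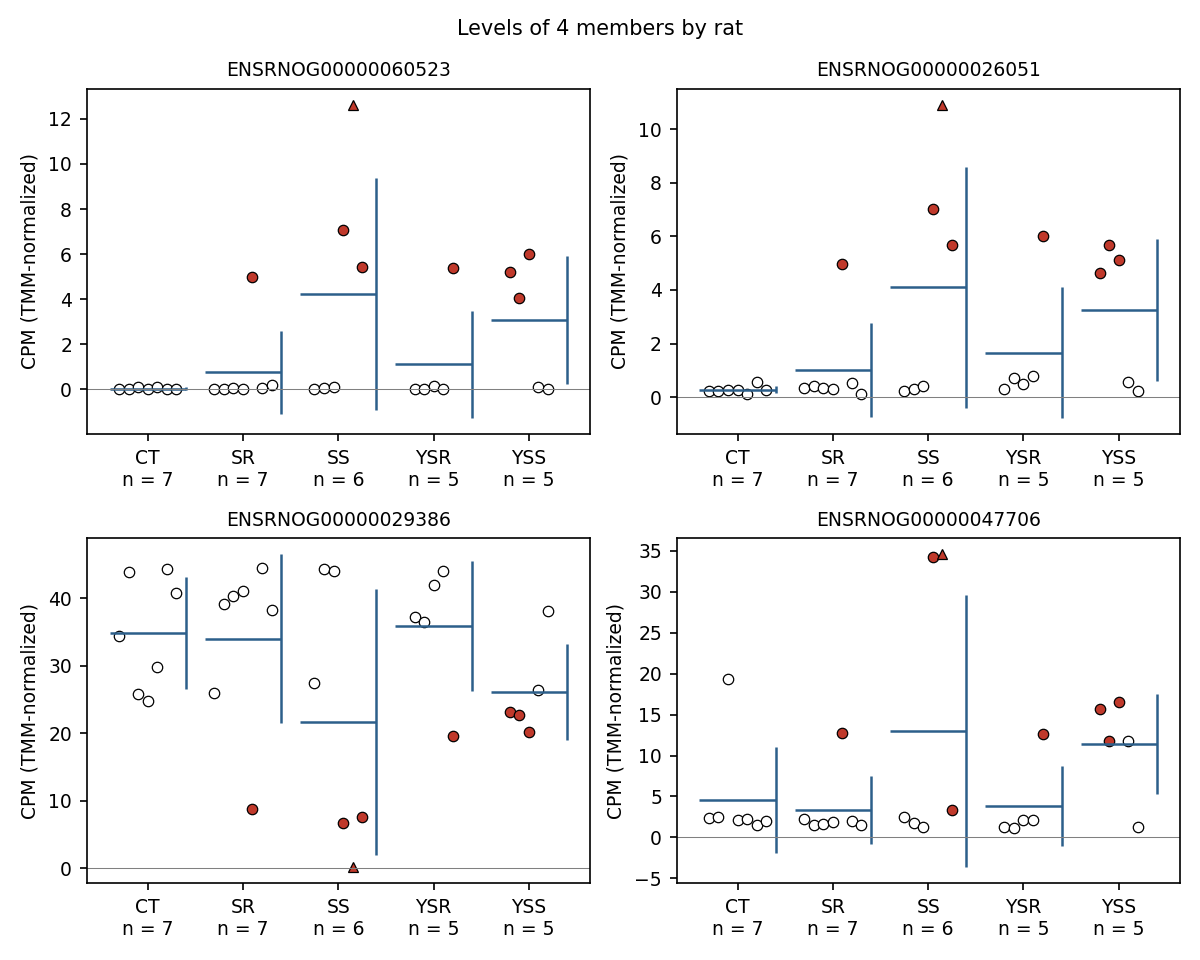
Level of 4 members in each of the 30 rats, in CPM after TMM normalization, by group. Circles are rats (the triangle is SS XII-L03), filled where the rat is among the 8 highest for ENSRNOG00000060523; horizontal lines are group means and vertical lines the mean ± 1 SD. The filled points are the 8 highest of ENSRNOG00000026051, the 8 lowest of ENSRNOG00000029386 and 7 of the 9 high rats of ENSRNOG00000047706.

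The next members along the chromosome ran the other way. ENSRNOG00000029386 (3146856 to 3150852, 8 exons) was lowest in the same 8 rats, and did not form 2 levels but several. It was at 0.114 CPM (2 counts) in SS XII-L03 and between 6.66 and 8.8 CPM in SS XIII-R03, SS XII-R03 and SR XII-L07. YSR XII-R10 and the YSS rats XIII-L06, XIII-L04 and XIII-L02 followed at 19.6, 20.2, 22.6 and 23.1 CPM. The remaining 22 rats spread from 24.8 to 44.5 CPM with no wide gap. In CT rats, none of which was low, it ranged from 24.8 to 44.3 CPM with a median of 34.4. ENSRNOG00000032664 (3162039 to 3162939) was also lowest in those 8 rats, from 0.114 CPM in SS XII-L03 to 1.97 CPM in SS XII-R03, and 7 of the 8 were among the 8 lowest for ENSRNOG00000029001 (3155652 to 3157088). ENSRNOG00000058852 (3159469 to 3160066), which like ENSRNOG00000060523 is a single exon of 598 bases on the minus strand, had 6 of the 8 among its lowest and lay between 0.419 and 3.07 CPM. Whether reads were divided between such look-alike rows in the counting was not tested.

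The fifth split member, ENSRNOG00000047706 (3791407 to 3794027), shares exon bases with the row ENSRNOG00000059770. It stood between 1.15 and 3.4 CPM in 21 rats, between 11.7 and 19.3 in 7 rats, and at 34.3 and 34.6 in SS XIII-R03 and SS XII-L03. Its 9 high rats were not quite those of ENSRNOG00000060523. SS XII-R03 was low for it at 3.4 CPM, while CT XIII-R05, at 19.3, and YSS XIII-R04, at 11.8, were high. The high rats counted 1 of 7 CT, 1 of 7 SR, 2 of 6 SS, 1 of 5 YSR and 4 of 5 YSS.

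**Figure D2:**
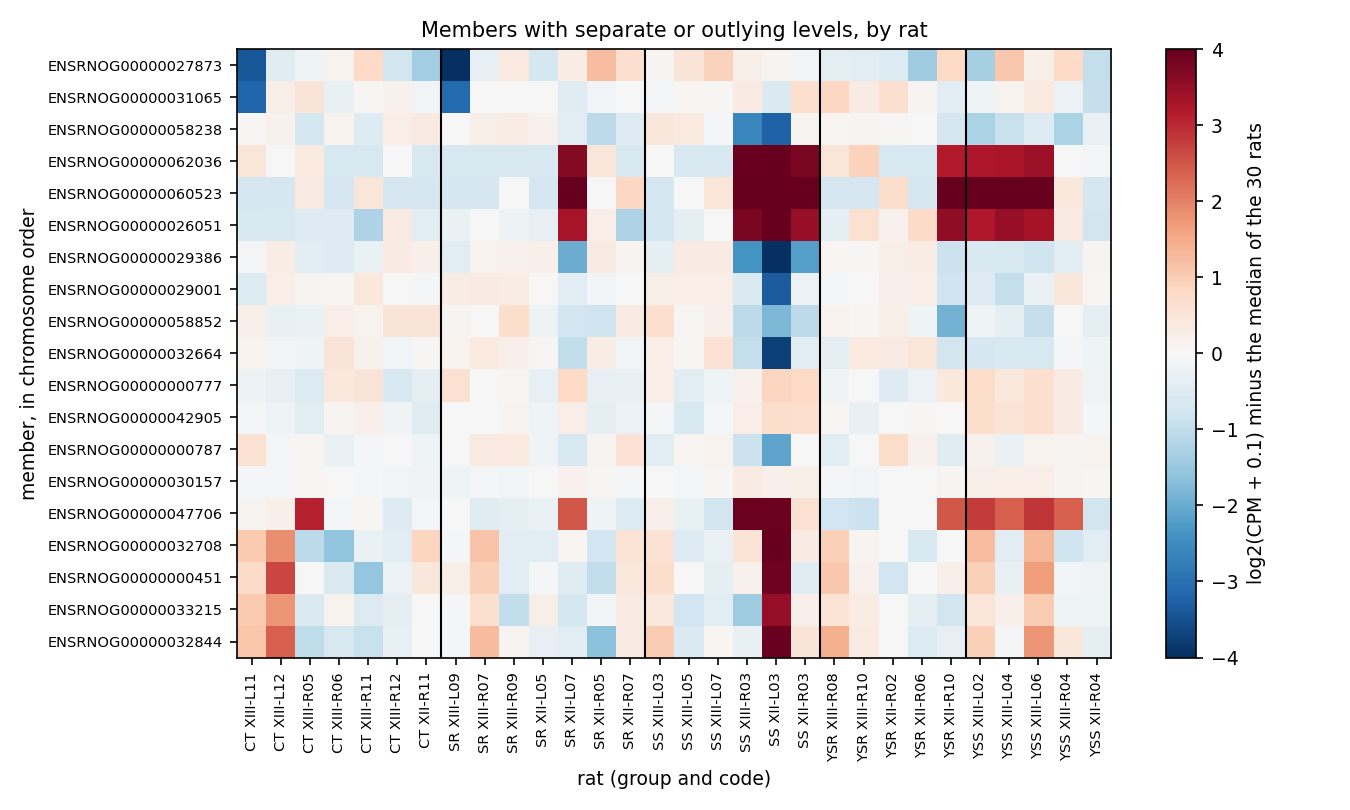
The 19 members with separate or outlying levels (rows, in chromosome order) in the 30 rats (columns, by group), as log2(CPM + 0.1) minus the member's median over the rats, with the color scale ending at 4 log2 units on either side. The red run of ENSRNOG00000062036, ENSRNOG00000060523 and ENSRNOG00000026051 falls on the same 8 columns, and SS XII-L03 stands out in both directions.

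Single rats stood apart as well. Counting members with a mean of at least 20 counts in which 1 or 2 rats lay at least 1 log2 unit beyond all others, 11 of 127 did so (8.66%), against 55 of 14122 genes (0.389%). In 8 of the 11 the rat was SS XII-L03. It was the lowest for ENSRNOG00000029386, ENSRNOG00000029001, ENSRNOG00000032664 and ENSRNOG00000000787, and the highest for the 4 members of a block described next. A pair of neighbours, ENSRNOG00000027873 (2388951 to 2390630) and ENSRNOG00000031065 (2408025 to 2409927), was nearly silent in CT XIII-L11 and SR XIII-L09 alone. ENSRNOG00000031065 had 6 and 7 counts there and 40 to 124 in the other 28 rats, and ENSRNOG00000027873 had 1 and 0 counts against 9 to 66. The last of the 11 was ENSRNOG00000050647 (4877324 to 4879779), at 15.0 CPM in SR XII-L05 and at most 7.36 in the others.

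Blocks of co-varying members were formed from the 36 members with an SD of at least 0.5, using deviations from group means and an absolute correlation of at least 0.7 on average. In all, 3 blocks took in 14 members. The first held 5 members between 2540864 and 3249189, among them ENSRNOG00000029386, with all 10 pairs positive and a median r of 0.77 over 30 rats. The second held 5 members between 3126829 and 3794027: the 3 members that share their 8 high rats, ENSRNOG00000047706, and ENSRNOG00000058852 with the opposite sign. Its median absolute r was 0.774. The third held ENSRNOG00000032708, ENSRNOG00000000451, ENSRNOG00000033215 and ENSRNOG00000032844, from 4039413 to 4132616, with a median r of 0.88. Spearman correlation in place of Pearson's left 8 members in 2 blocks: the third block whole, and the 3 members that share their 8 high rats together with ENSRNOG00000029386. The members of the third block were at 25.2, 25.3, 26.8 and 36.2 CPM in SS XII-L03. The next rat was CT XIII-L12, at 3.81, 10.9, 7.97 and 12.1 CPM. All of these correlations share the same libraries and depths and are given as a description.

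Since SS XII-L03 stood apart in so many members, the blocks were formed again without it, an alternative added after the data were seen. The 4-member block from 4039413 to 4132616 came back whole. The other two gave way to 1 block of 6 members between 3126829 and 3794027, in which ENSRNOG00000029386 and ENSRNOG00000032664 joined the 3 members with shared high rats and ENSRNOG00000047706. In the absence of this rat the correlation of ENSRNOG00000060523 with ENSRNOG00000029386 went from -0.69 to -0.82, and that with ENSRNOG00000032664 from -0.70 to -0.81.

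**Figure D3:**
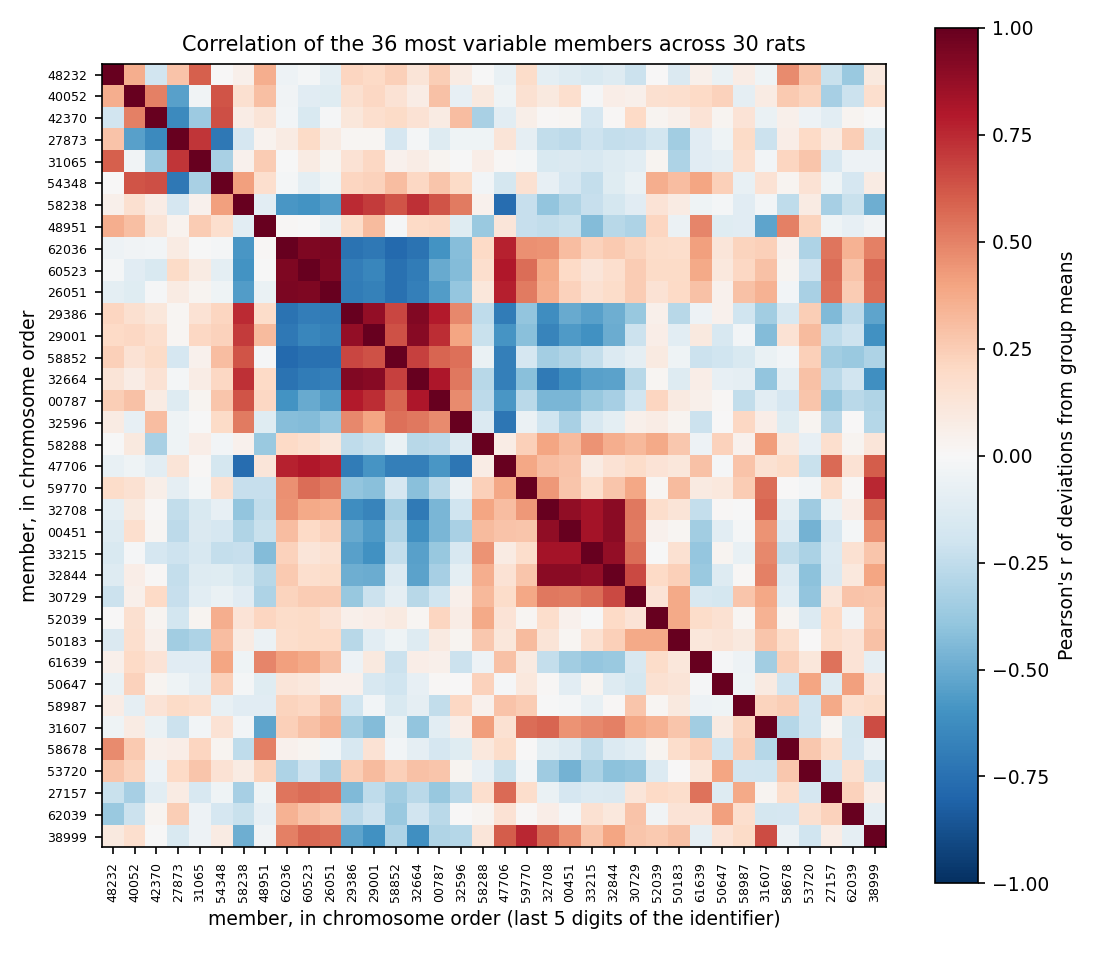
Pearson's r between the 36 members with an SD of at least 0.5 log2 units, from deviations from group means over 30 rats; rows and columns are in chromosome order and labelled with the last 5 digits of the identifier. ENSRNOG00000062036, ENSRNOG00000060523 and ENSRNOG00000026051 form a red square bordered by blue, and the 4 members from ENSRNOG00000032708 to ENSRNOG00000032844 another red square lower down.

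Co-variation was mostly between close members. Among the 23 members with an SD of at least 0.5 and a mean of at least 20 counts, pairs whose starts lay within 100 kb had a median absolute r of 0.7, and 17 of these 34 pairs reached 0.7. At 100 to 500 kb the median was 0.308 (33 pairs), at 500 to 1000 kb 0.238 (91 pairs) and beyond 1000 kb 0.159 (95 pairs). Pairs of such a member and an equally variable gene of another chromosome had a median of 0.153. Leaving out SS XII-L03, the medians were 0.677, 0.271, 0.121 and 0.152 at the same distances, and 0.148 between chromosomes. Over directly adjoining members of any variability, 9 of 144 pairs reached an absolute r of 0.7 (6.25%), against 1.07% of adjoining genes genome-wide. One of the 9 was a negative pair: ENSRNOG00000058784 (3170034 to 3199279, minus strand) spans ENSRNOG00000000777 (3176107 to 3179818, plus strand) and the 2 had r = -0.82. The exons of ENSRNOG00000000777 share no bases with those of any other row.

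Ranked over all genes tested, the 9 genes most like ENSRNOG00000060523 by absolute r were members. They were its neighbours on either side (0.94 and 0.93), ENSRNOG00000030157 (3367150, r = 0.83), ENSRNOG00000047706 (0.80), ENSRNOG00000058852 (-0.75), ENSRNOG00000056637 (5080070, 0.72), ENSRNOG00000032664 (-0.70), ENSRNOG00000029386 (-0.69) and ENSRNOG00000031090 (4694472, 0.69). An absolute r of at least 0.5 was found for 23 of the other 144 members and for 1.11% of the 15652 genes outside. Without SS XII-L03, 8 of the 10 genes most like ENSRNOG00000060523 were members, and a gene of chromosome 8 (ENSRNOG00000012962, r = 0.73) was at rank 8. ENSRNOG00000030157 is a well-counted gene, with 681 to 1053 counts per rat, and its range was narrow, from 39.2 to 55.2 CPM. Of its 8 highest rats, 7 were high for ENSRNOG00000060523. For the third block, likeness was less confined to the interval. With ENSRNOG00000032844, 15 of the other 144 members (10.4%) and 4.58% of the genes outside reached an absolute r of 0.5. The gene most like ENSRNOG00000032844 lies on chromosome 18 (ENSRNOG00000018735, r = 0.97, and 0.95 without SS XII-L03), and only 4 of its 10 most alike genes were members, or 2 of 10 without SS XII-L03.

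**Figure D4:**
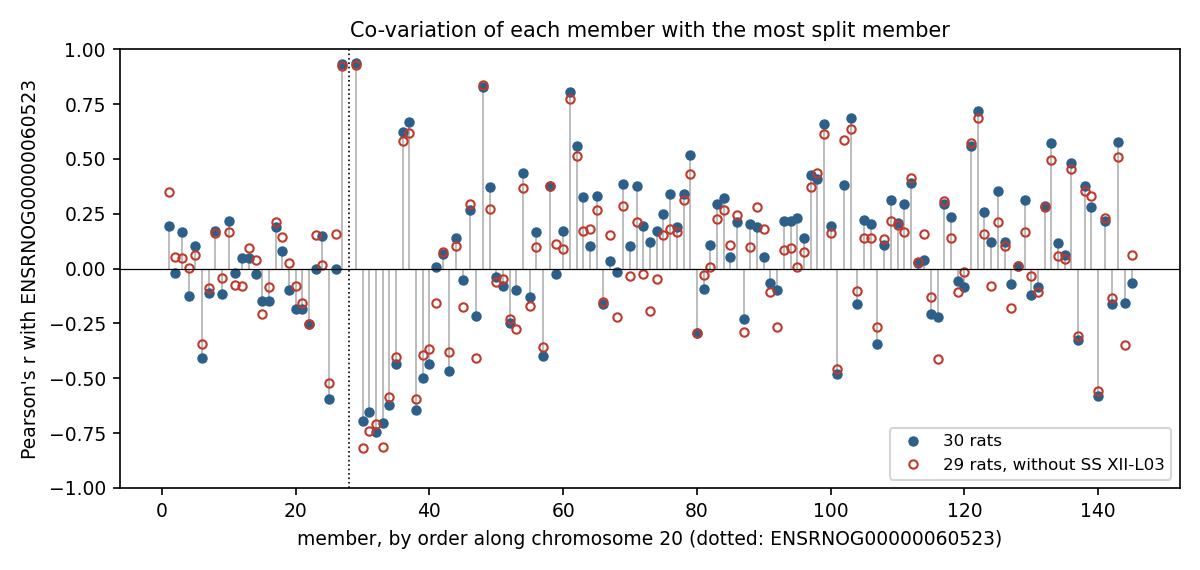
Pearson's r of each of 144 members with ENSRNOG00000060523 (vertical axis), by their order along chromosome 20 (horizontal axis, in members). Filled points are from 30 rats and open points from 29, without SS XII-L03; the points furthest from 0 lie next to the dotted line, and single ones further along, such as ENSRNOG00000047706 at 0.80.

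Group differences were tested with edgeR's quasi-likelihood test over all 15797 genes, with Benjamini-Hochberg adjustment. Over the 5 groups at once, 19 of the 145 members had an unadjusted p-value under 0.05 (13.1%, against 7.32% of all genes), and none passed after adjustment, where 0.171% of all genes did. In the linear model of log2 CPM used for Tukey's test, an alternative fitted to all genes, 10 members had a p-value under 0.05 (6.9%, against 7.04%), so that their share was not above the background. DESeq2 also called 0 members after adjustment, and 0.367% of all genes. The comparisons with CT rats share those rats, and so are not independent of each other. Members that co-vary are not independent either, so the counts of members below are not counts of separate results.

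In SS vs. CT, which sets METH and foot-shock with suppressed intake against neither drug nor shock, 18 members had an unadjusted p-value under 0.05 (12.4%, against 5.01% of all genes). With Tukey's test on log2 CPM, which adjusts for the pairs of groups, there was 1 (0.69%, against 0.804%), again not above the background, and in cohort XIII alone edgeR gave 11 (7.59%, against 4.28%). Of the 18, 12 were higher in SS rats (background 2.71%) and 6 lower (2.3%). Adjusted over all genes, none passed in edgeR (0.101% of all genes did). The smallest p-values in edgeR were those of the 3 split members with the same 8 high rats. ENSRNOG00000026051 was at 4.09 ± 4.48 CPM in SS rats (SD, n = 6) and 0.281 ± 0.138 in CT rats (n = 7), a log2 fold change of 3.83 ± 0.97 (SE) with an edgeR-adjusted p of 0.247 and a p of 0.0455 in an exact permutation test (two-sided, as are all such tests here). ENSRNOG00000060523 was at 4.22 ± 5.14 CPM in SS rats, and the 7 CT rats held 4 counts in all (edgeR-adjusted p = 0.291, exact permutation p = 0.0396). ENSRNOG00000062036, which shares their high rats, was at 1.41 ± 1.67 CPM in SS rats and 0.0488 ± 0.0511 in CT rats (edgeR-adjusted p = 0.494, exact permutation p = 0.128). The groups overlapped in these 3 members, since 3 SS rats lay at the CT level. ENSRNOG00000060523 and ENSRNOG00000062036 met the count rule through their 8 high rats alone, of which 3 were SS and 0 CT. All 3 members were picked for small p-values in the same data, and the permutation p-values are not adjusted for that choice. DESeq2 called 1 of the 145 members after adjustment (0.69%, against 0.146% of all genes), ENSRNOG00000026051 (adjusted p = 0.0203). Within cohort XIII, 1 of 4 SS rats and 0 of 6 CT rats were at the high level of ENSRNOG00000060523, and cohort XII held 1 CT rat, too few to compare.

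In YSS vs. CT, which contrasts foot-shock without METH and neither, 13 members had an unadjusted p-value under 0.05 (8.97%, against 5.01% of all genes), 9 higher in YSS rats (background 2.24%) and 4 lower (2.77%). Tukey's test gave 2 (1.38%, against 0.639%) and cohort XIII alone 22 (15.2%, against 6.07%). None passed after adjustment in edgeR (0.0823% of all genes did) or in DESeq2 (0.095%). ENSRNOG00000030157 was at 46.0, 47.8, 52.4, 53.2 and 53.4 CPM in the 5 YSS rats, and CT rats ranged from 40.0 to 46.9 with a median of 43.0. The groups overlapped by 1 rat, CT XIII-R05 (log2 fold change 0.24 ± 0.06, edgeR-adjusted p = 0.392, exact permutation p = 0.00505). ENSRNOG00000042905 (3189473 to 3197457) had a log2 fold change of 0.58 ± 0.16 (edgeR-adjusted p = 0.615), with 14.0 ± 2.85 CPM in YSS rats and 9.35 ± 1.66 in CT rats. For both members the YSS rats XIII-L02, XIII-L04 and XIII-L06, which were high for ENSRNOG00000060523, were the 3 highest of their group.

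SR vs. SS, the comparison between rats that kept pressing and rats that reduced pressing, gave the most members of the 8 comparisons. An unadjusted p-value under 0.05 was found for 23 members (15.9%, against 7.46% of all genes), 9 higher in SR rats (background 3.44%) and 14 lower (4.02%). After adjustment 0 members passed in edgeR and in DESeq2 (0.0% and 0.076% of all genes). The excess over the background rested on SS XII-L03. Without this rat the count was 12 (8.28%, against 9.63% of all genes), whereas it stayed above the background when any of the other 29 rats was left out. In cohort XIII alone, which does not hold this rat, it was 10 (6.9%, against 6.74%), and with Tukey's test on all rats 3 (2.07%, against 1.2%). ENSRNOG00000000464 (3823042) was at 96.9 ± 9.18 CPM in SR rats and 86.5 ± 4.70 in SS rats (log2 fold change 0.16 ± 0.05, edgeR-adjusted p = 0.448), and its unadjusted p-value of 0.00237 became 0.0887 in cohort XIII alone. ENSRNOG00000032708, of the third block, had a log2 fold change of -2.24 ± 0.69 (edgeR-adjusted p = 0.463). Its unadjusted p-value of 0.0029 became 0.892 without SS XII-L03.

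The other comparisons gave counts near or below the background. In SR vs. CT, 7 members had an unadjusted p-value under 0.05 (4.83%, against 10.5% of all genes), and 0.0% of all genes passed after adjustment. In YSR vs. CT there were 5 (3.45%, against 7.56%; 0.12% of all genes after adjustment), in SR vs. YSR 4 (2.76%, against 8.17%; 0.0253%), in SS vs. YSS 8 (5.52%, against 4.27%; 0.0%) and in YSR vs. YSS 6 (4.14%, against 3.29%; 0.0%). The last count rose to 15 without YSR XII-R10 (10.3%, against 2.96%) and to 21 in cohort XIII alone (14.5%, against 3.99%). No member passed after adjustment in any of these 5 comparisons, in edgeR or in DESeq2, which called between 0.00633% and 0.203% of all genes in them. Median log2 fold changes of the members were within 0.03 of 0 in all 8 comparisons.

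**Figure D5:**
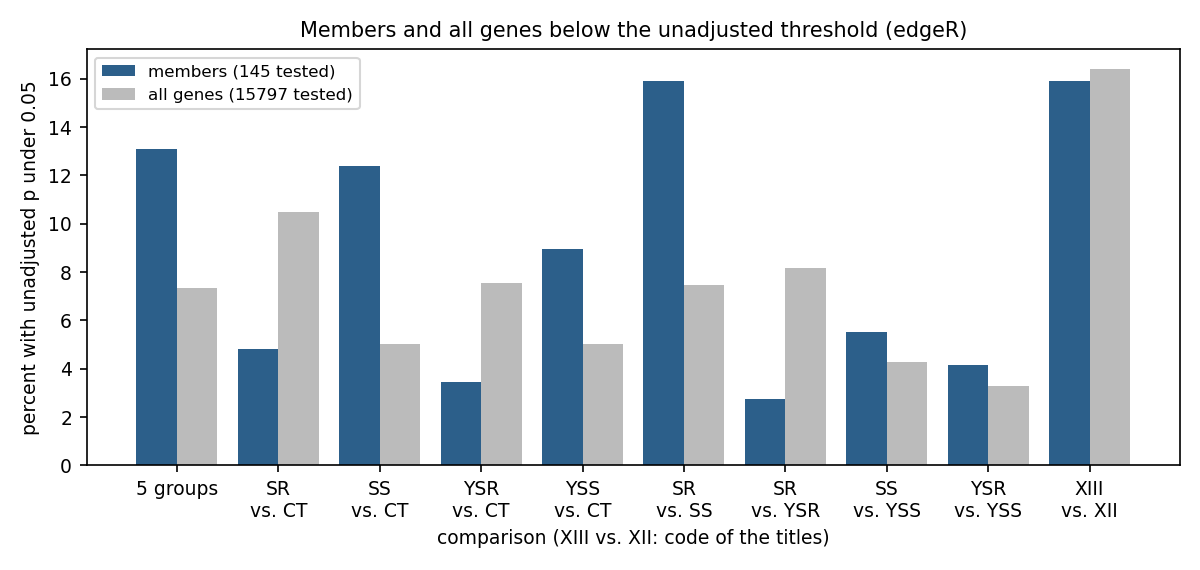
Percent of the 145 members (blue) and of the 15797 genes tested (grey) with an unadjusted p-value under 0.05 in edgeR's quasi-likelihood test, for the test over 5 groups, the 8 comparisons and the 2 cohorts. The members' share is above that of all genes in SS vs. CT (12.4% and 5.01%) and SR vs. SS (15.9% and 7.46%), and below it in SR vs. CT (4.83% and 10.5%).

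Of the 8 comparisons between groups, SR vs. YSR held the members with the smallest adjusted p-values in edgeR, none of which passed the threshold. ENSRNOG00000030729 (4302344) was at 2.30, 2.52, 2.93, 3.99 and 4.50 CPM in the YSR rats and between 0.882 and 1.92 CPM in the SR rats, with a median of 1.45. The groups did not overlap (log2 fold change -1.15 ± 0.31, edgeR-adjusted p = 0.201, exact permutation p = 0.00253, the smallest that 7 against 5 rats allow). However, ENSRNOG00000030729 shares exon bases with the row ENSRNOG00000000443 (4302347 to 4508214), and reads on those bases cannot be assigned to either row. ENSRNOG00000000850 (5120474) was at 1.34 ± 0.297 CPM in SR rats and 0.698 ± 0.261 in YSR rats, with 8 to 30 counts per rat (log2 fold change 0.95 ± 0.23, edgeR-adjusted p = 0.162), and here 1 YSR rat lay within the SR range. In SR vs. CT the member with the smallest p-value was ENSRNOG00000052365 (2493695), at 1.52 ± 0.241 CPM in SR rats and 2.12 ± 0.546 in CT rats (log2 fold change -0.48 ± 0.15, edgeR-adjusted p = 0.323). CT XIII-L11, at 1.16, lay below every SR rat, and in cohort XIII alone the log2 fold change was -0.29 with an unadjusted p-value of 0.204 from edgeR.

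The cohorts differed in these members as often as in other genes. With the cohort as a term beside the group, 23 members had an unadjusted p-value under 0.05 between XIII and XII (15.9%, against 16.4% of all genes), 3 higher in XIII (background 8.15%) and 20 lower (8.21%). One passed after adjustment, against 0.481% of all genes: ENSRNOG00000000437 (4369178 to 4378269), lower in XIII by a log2 fold change of -0.13 ± 0.03 (edgeR-adjusted p = 0.0386). Its levels lay between 169 and 212 CPM over the 30 rats, and the cohorts overlapped. ENSRNOG00000060523 was among the 20, with an adjusted p of 0.254 from edgeR.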

How the data were processed

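Hippocampal RNA of 30 rats was sequenced for the authors by a service company, 1 library per rat. Per the study's methods and the submitters' processing notes, base calls were converted with bcl2fastq 2.17 and reads trimmed with Trimmomatic 0.36, and the notes also name STAR 2.5.2b, featureCounts and Subread 1.5.2. The authors deposited raw counts per Ensembl gene with position, strand and length. The genome build and the use of strand are not given in the sources used here. Groups were read from the titles, and the codes XII and XIII in the titles were taken as cohorts. The members, lists and tests were chosen with earlier results of these data known. The libraries come from separate rats.

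From the counts, edgeR 4.0.16 (R 4.3.3) modelled the 30 libraries by group (TMM normalization, default filter, quasi-likelihood test), with 8 contrasts and an adjusted threshold of 0.05 over 15797 genes. Levels are TMM-normalized CPM. Splits, blocks and correlations used log2 CPM with a prior count of 2, and correlations are descriptions without p-values (Python 3.11, scipy). The 3 members with the smallest p-value in each comparison were also compared by exact permutation tests over rats, with no adjustment for this choice. Named members were the 3 with the smallest p-value in each comparison, those passing adjustment, the 10 with the widest gaps, the 5 most abundant per kilobase and those at the edges of the interval, with at most 2 per direction and comparison given with full statistics. Members of blocks, of pairs of neighbours or with a rat far from the others were named after their values were seen, as were the rows beside them. Alternatives were DESeq2 1.42.0, median-ratio size factors, no filter, cohort XIII alone, the cohort as a covariate, Tukey's test as named in the study, and each rat left out. The tests were checked on simulated counts, in which 200 genes were changed 2-fold in all SS rats. There DESeq2 made a larger share of false calls than edgeR (10.4% and 4.37%). Levels carried by a few rats were not simulated, so the check does not cover the split members. Promoter and protein sequences could not be assigned to members and were not used here.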

Additional observations from a re-analysis of the deposited data

Results flagged for a closer look

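For the named members and the interval's share of counts, the top and bottom rat of a group were compared with its other rats. A rat stood far from its group in 27 of 170 such sets of values, where chance gives about 1 in 20, or 8.5. Of the 27, 17 fell among the 50 sets from the 10 members named for their wide gaps between rats, so that the choice of members set this excess in part. The other 10 fell among 120 sets. The values share rats and neighbouring members and are not independent, and the p-values of the group tests assume no such rats. No explanation was tested.

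SR XII-L07 and YSR XII-R10 were each far above the other rats of their group for 5 members, of which the first 3 share their 8 high rats: ENSRNOG00000060523 (4.97 and 5.38 CPM), ENSRNOG00000026051 (4.97 and 6.01), ENSRNOG00000062036 (1.89 and 1.33), ENSRNOG00000047706 (12.7 and 12.6) and ENSRNOG00000027157 (1.62 and 0.559). Among CT rats, XIII-R05 stood out for ENSRNOG00000047706 (19.3 CPM) and XIII-R12 for ENSRNOG00000026051 (0.571 CPM, 10 counts).

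SS XII-L03 was far above the other SS rats for ENSRNOG00000032708 (25.2 CPM), ENSRNOG00000000451 (25.3), ENSRNOG00000032844 (36.2), ENSRNOG00000000774 (1468) and ENSRNOG00000000476 (42.1). Among CT rats, XIII-L12 was far above the others for ENSRNOG00000000451 (10.9 CPM) and ENSRNOG00000032844 (12.1).

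YSR XII-R10 was far below its group for ENSRNOG00000040052, at 2.93 CPM where the other YSR rats had at least 12.6. Smaller departures were seen in YSR XIII-R10 for ENSRNOG00000042905 (8.28 CPM), YSR XII-R06 for ENSRNOG00000000812 (27.4) and YSS XII-R04 for ENSRNOG00000000774 (1487). SR XII-R05 departed likewise for ENSRNOG00000061216 (567) and for the interval's share (7943 CPM of the total). For ENSRNOG00000000477 the rats were CT XIII-R11 (38.3) and YSS XIII-L04 (35.6).

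Outside the members, ENSRNOG00000030666, a row too low for the count rule, had 10 counts in SS XII-L03, where no CT rat had more than 1.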

How the results depend on the processing

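Median-ratio size factors, no filter and DESeq2 kept the direction and the side of the unadjusted threshold of all 24 results on single members. With the cohort as a covariate 3 of 24 rose above the threshold: ENSRNOG00000056637 in SR vs. CT, ENSRNOG00000022730 in YSR vs. CT and ENSRNOG00000032708 in SS vs. YSS. In cohort XIII alone 10 did: ENSRNOG00000052365, ENSRNOG00000000442 and ENSRNOG00000056637 in SR vs. CT, ENSRNOG00000030729, ENSRNOG00000022730 and ENSRNOG00000000850 in YSR vs. CT, ENSRNOG00000000464 in SR vs. SS, ENSRNOG00000000442 in SR vs. YSR, ENSRNOG00000031689 in SS vs. YSS and ENSRNOG00000000812 in YSR vs. YSS. There, 2 reversed, both ENSRNOG00000032708 (log2 fold change 0.22 in SR vs. SS and -0.49 in SS vs. YSS). The latter ran from -0.28 to 2.26 when single rats were left out, the lowest without SS XII-L03. The causes were not tested.

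Counts of members with an unadjusted p under 0.05 fell with ANOVA and Tukey's test, which adjusts for the pairs of groups. With the share of members against that of all genes under the same test, they were 10 over the 5 groups (6.9%, against 7.04%), 3 in SR vs. SS (2.07%, against 1.2%), 2 each in YSS vs. CT, YSR vs. YSS and SR vs. YSR (1.38%, against 0.639%, 0.392% and 1.85%), 1 each in SS vs. CT and SR vs. CT (0.69%, against 0.804% and 1.91%), and 0 each in SS vs. YSS and YSR vs. CT (against 0.494% and 1.3%). With the cohort as a covariate the counts were 3 in SR vs. CT (2.07%, against 6.83%) and 11 in YSR vs. YSS (7.59%, against 3.75%). Cohort XIII alone, with fewer rats, gave 22 in YSS vs. CT (15.2%, against 6.07%), 21 in YSR vs. YSS (14.5%, against 3.99%), 11 in SS vs. CT (7.59%, against 4.28%), 10 in SR vs. SS (6.9%, against 6.74%) and 3 in YSR vs. CT (2.07%, against 5.98%). After adjustment, DESeq2 gave 1 in SS vs. CT (0.69%, against 0.146%). Spearman correlation left 8 members in blocks.

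Leaving out single rats, the counts ran from 12 to 33 in SR vs. SS (8.28% to 22.8%, against 5.15% to 9.82% of all genes), 2 to 9 in SR vs. CT (1.38% to 6.21%, against 7.46% to 13.8%), 4 to 15 in YSR vs. YSS (2.76% to 10.3%, against 2.72% to 4.26%), 4 to 8 in YSR vs. CT (2.76% to 5.52%, against 5.94% to 8.76%), 4 to 14 in SS vs. YSS (2.76% to 9.66%, against 3.33% to 5.1%) and 4 to 9 in SR vs. YSR (2.76% to 6.21%, against 6.53% to 10.2%). The members' share was above that of all genes whichever rat was left out in SS vs. CT, YSS vs. CT and over the 5 groups, in 29 of 30 cases in SR vs. SS, 28 in YSR vs. YSS and 26 in SS vs. YSS, and in 0 of 30 in SR vs. CT, YSR vs. CT and SR vs. YSR. Since many members co-vary across several rats, leaving out 1 rat cannot show how far such a shared pattern set these shares. Counts moved by over 1.5 times without CT XIII-R05, XIII-R06, XIII-R11 and XIII-R12, SR XII-R05 and YSS XIII-L02 (SR vs. CT, 2 to 4), CT XIII-L12 and YSR XIII-R10 (YSR vs. CT, 8 each), SS XII-L03 (SR vs. SS, 12), SR XIII-L09, XIII-R07, XIII-R09 and YSR XIII-R08 and XII-R10 (SR vs. YSR, 7 to 9), SS XIII-L07, XIII-R03, YSS XIII-L04 and XIII-R04 (SS vs. YSS, 4 to 14), and YSR XII-R10 and YSS XII-R04 (YSR vs. YSS, 15 and 12). No paired analysis was made. The rats' codes are not shared between groups, and the labels do not say which yoked rat belonged to which METH rat. Some adjoining codes, odd for METH and even for yoked rats, might mark such pairs, but a pairing on them was not tried, and the yoking is not modelled in SR vs. YSR and SS vs. YSS. With 5 to 7 rats a group, a level carried by a few rats has a wide error, and counts near 3 are at the limit of detection.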
